A study of Mus musculus with 11 samples.

Results

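The genes described here encode the cohesin ring subunits Rad21 and Smc3, the cohesin loader Nipbl and the DNA-binding factor Ctcf. They were examined as 4 windows of the mouse build mm9: chromosome 15 from 51770000 to 51850000 for Rad21, chromosome 19 from 53650000 to 53740000 for Smc3, chromosome 15 from 8220000 to 8420000 for Nipbl and chromosome 8 from 108140000 to 108230000 for Ctcf. Every called peak that reached into a window by at least 1 bp was a member. There were 84 such peaks among the 120616 peaks of 6 lists, 62 of them for H3K27ac (histone H3 carrying an acetyl group on lysine 27, found at active promoters and enhancers) and 22 for the cohesin subunit Smc1a.

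Cohesin is a ring that holds chromatin fibres. Smc1a and Smc3 form the arms of the ring and the kleisin Rad21 closes it. Nipbl loads the ring onto chromatin and promotes its movement along the fibre, and Ctcf, bound to its DNA motif, halts cohesin at the borders of chromatin loops. In developing T cells, cohesin and Ctcf are known for shaping antigen receptor loci during their rearrangement.

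Chromatin immunoprecipitation with sequencing was done on CD4+ CD8+ thymocytes sorted from mice aged 6 weeks. The H3K27ac libraries were 2 from wild-type controls (WT 1 and WT 2) and 2 from Rad21 -/- littermates (KO 1 and KO 2), in which a floxed Rad21 allele had been deleted by a Cd4-driven Cre. The labels do not say whether the controls carried the Cre or the floxed allele. Smc1a was mapped in 2 wild-type libraries and has no KO counterpart. A Cd4-driven Cre acts only once thymocytes transcribe Cd4, and how far Rad21 protein was lost in the sorted cells was not measured here. Whether replicates are from different animals is not stated, so p-values measure only the spread between these libraries, which may be technical.

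The lists give places and scores of called peaks and no reads, so sequencing depth is unknown and an empty place means that no peak was called there. H3K27ac lists held 15686 to 21973 peaks over 45.6 to 56.3 Mb, with WT 2 the shortest and WT 1 the longest by both measures. The Smc1a lists held 25484 and 17726 peaks. The score is the authors' own value, with a floor near 50, and it is printed as given. Its rank within a list is the percentage of that list's peaks with a lower score. Whether raw scores of different lists share a scale is not known. No gene annotation of mm9 was used, so a peak is placed in a window and not assigned to a promoter, exon or intron. Thymocyte and other cell type markers were not checked for the same reason. Acetylation calls do not test the deletion of Rad21 itself, since no reads over the floxed part were analysed here. In the gene order of RefSeq (GRCm38.p6), the nearest protein-coding neighbours are Utp23 and Gm52217 for Rad21, Dusp5 and Rbm20 for Smc3, Cplane1 and LOC102634078 for Nipbl, and Ripor1 and Carmil2 for Ctcf.

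The RefSeq promoter table holds 2 of the 4 genes, Smc3 and Ctcf, from 250 bases before to 50 bases after the transcription start. These 2 promoters are printed because the table has no entry for Rad21 or Nipbl. Their positions are in GRCm38.p6 and cannot be set against the mm9 peaks. Both lie on the plus strand, and capitals mark the only match of each to the core of the YY1 motif (GCCATNTT, searched on both strands).

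Smc3, chr19:53600146-53600445: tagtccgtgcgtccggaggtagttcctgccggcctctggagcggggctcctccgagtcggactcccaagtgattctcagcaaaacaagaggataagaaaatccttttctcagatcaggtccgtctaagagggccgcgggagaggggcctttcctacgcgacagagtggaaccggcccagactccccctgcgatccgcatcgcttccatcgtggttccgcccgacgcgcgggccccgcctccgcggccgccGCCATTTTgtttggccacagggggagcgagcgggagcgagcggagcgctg

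Ctcf, chr8:105636288-105636587: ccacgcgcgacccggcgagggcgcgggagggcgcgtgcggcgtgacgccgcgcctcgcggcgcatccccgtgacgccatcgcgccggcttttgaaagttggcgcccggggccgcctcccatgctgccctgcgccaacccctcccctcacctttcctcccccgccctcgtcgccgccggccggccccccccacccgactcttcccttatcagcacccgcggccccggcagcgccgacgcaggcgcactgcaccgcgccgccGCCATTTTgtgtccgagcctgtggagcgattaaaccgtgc

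With the start base counted as 1, the YY1 match began at base 1 in Smc3 and at base 11 in Ctcf, both on the plus strand. Of the 32851 promoters in the table, 6.05% hold such a match. The letters were set after the promoters had been read, so this share does not say how unusual the matches are. It covers all promoters and not only those of similar CpG content. Each promoter also held 1 GC box (GGGCGG, found in 35.7% of promoters), which did not overlap the YY1 match. The CTCF core (CNAGNNGGC, in 20.8% of promoters), the ETS core (CCGGAA, 14.9%), the CCAAT box (CCAAT, 37.4%), the E-box (CACGTG, 7.15%), the TATA box (TATAAA, 13.6%), the RUNX core (TGTGGT, 16.8%) and the NRF1 motif (GCATGCG, 3.58%) had no match in these letters in either promoter. Both promoters were rich in CpG, with 32 CpG dinucleotides in Smc3 and 47 in Ctcf against a median of 7 over the table. Their GC content was 65% and 75.3%, against a median of 52.7%.

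Acetylation was called in all 4 libraries in each of the windows. The peaks of the 4 H3K27ac libraries merged into 23 regions, where peaks that overlapped or touched were joined. Of these, 8 regions (34.8%) had a peak in all 4 libraries, against 49.6% of all 24430 regions of the genome. Another 8 regions (34.8%) were called in 1 library alone, against 21.1% of all regions, and 6 of these 8 came from WT 1. The shared regions are lettered here by their order along the chromosome: 1 at Rad21, 1 at Smc3, 3 at Nipbl and 3 at Ctcf. Their median length was 4469 bp, against 2922 bp over the 12129 shared regions of the genome.

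**Figure D1:**
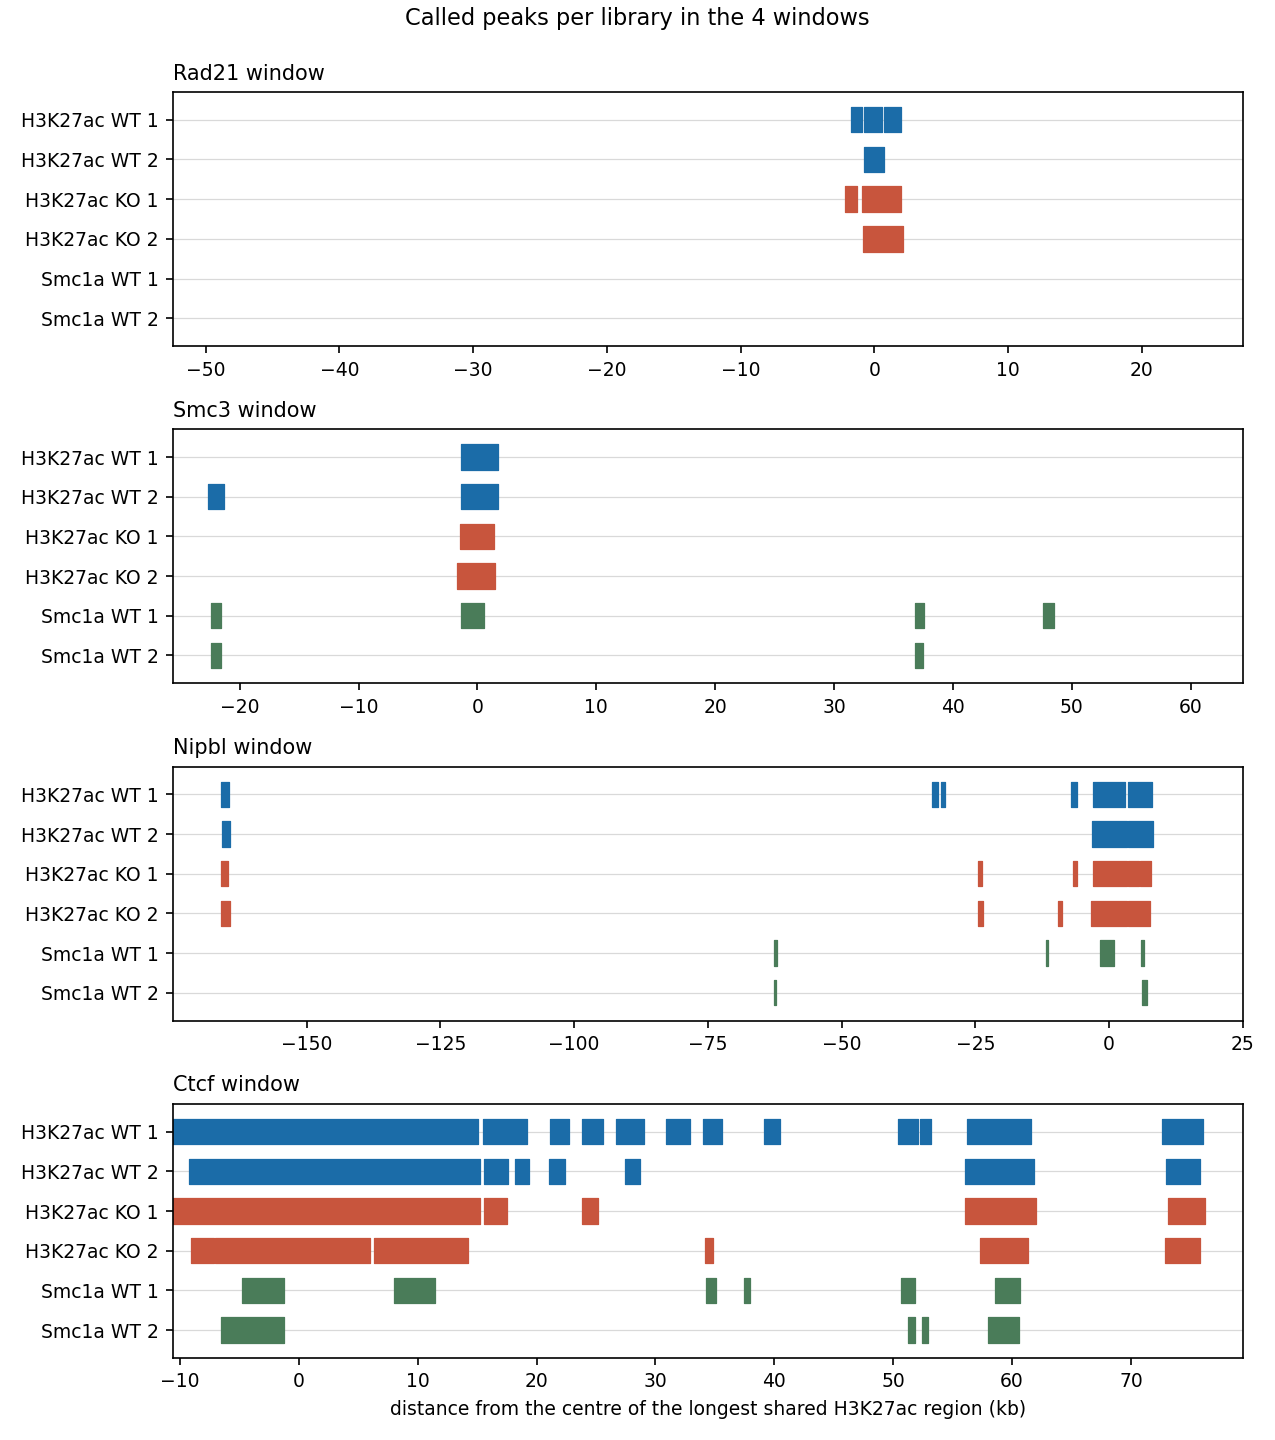
Called peaks in each library (rows; blue WT and red KO H3K27ac, green Smc1a) against the distance in kb from the centre of the longest shared H3K27ac region of the window; bars run from the start to the end of a peak and are clipped to the window, and the shortest gaps do not show in the Nipbl panel. The Rad21 window has no Smc1a bar in either replicate, and the interval to the right of the broad Ctcf stretch holds 9 and 4 H3K27ac peaks in WT 1 and WT 2 and 2 and 1 in KO 1 and KO 2.

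Rad21, the kleisin subunit and the deleted gene, had a single acetylated region in its window, on chromosome 15 from 51820256 to 51824558 (Rad21 a). Called peaks covered 3406 bp of it in WT 1, 1478 bp in WT 2, 3793 bp in KO 1 and 3019 bp in KO 2. WT 2 stood lowest, and WT 1 lay between the KO libraries. The means were 2442 ± 1363 bp in WT and 3406 ± 547 bp in KO libraries (SD, n = 2 each), a difference of 964 bp that was smaller than the spread between the WT libraries (two-sided exact permutation test over 4 libraries, p = 0.667, with 0.333 the smallest possible). The difference was 0 bp without WT 2, 1928 bp without WT 1 and 577 bp without KO 1. Scaled to the total length called in each library, Rad21 a took 60.5 and 32.4 bp per Mb in WT and 72.0 and 63.4 bp per Mb in KO libraries, so that the groups no longer overlapped (exact permutation test, p = 0.333). They did not overlap either with weak peaks removed by a stricter score threshold, which kept 75% of every list. It left 2578 bp in WT 1, 1478 bp in WT 2, 2905 bp in KO 1 and 3019 bp in KO 2 (exact permutation test, p = 0.333). Unscaled and with all peaks, both KO lengths lay above both WT lengths in 17.4% of the shared regions of the genome. That share was not computed for scaled lengths or for the stricter threshold.

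Most of the shortfall of WT 2 lay on the right side of the region. Its single peak ended at 51823131, and over the remaining 1427 bp of the region the calls covered 1261 bp in WT 1, 1265 bp in KO 1 and 1427 bp in KO 2. The caller also cut the stretch differently. WT 1 had 3 peaks with gaps of 169 and 136 bp, KO 1 had 2 with a gap of 348 bp, and WT 2 and KO 2 had 1 each. The best peaks had scores of 592.74 in WT 1, 147.47 in WT 2, 816.37 in KO 1 and 518.44 in KO 2, above 68.2%, 38.8%, 74.7% and 64.5% of the peaks of their lists. The best peaks of the longest regions at Nipbl and Ctcf ranked higher, above 90% of their lists in every library. Such mid-range positions were not particular to Rad21 a. The peaks of Nipbl a ranked above 71.0% (WT 1), 52.0% (WT 2), 59.8% (KO 1) and 61.5% (KO 2) of their lists.

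No Smc1a peak of either replicate lay in the Rad21 window. From the edges of Rad21 a, the nearest peak of replicate 1 was 76543 bp to the left and 167705 bp to the right, and that of replicate 2 was 76542 bp and 167671 bp away. Within 40 kb, a distance chosen with these values known, 9.12% of the shared regions of the genome likewise had no Smc1a peak. Among the 8 members this applied to Rad21 a and to Nipbl a.

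Smc3, which pairs with Smc1a in the ring, also had 1 shared region in its window, on chromosome 19 from 53673880 to 53677285 (Smc3 a). It was a single peak in each library, of 3069 bp in WT 1, 3081 bp in WT 2, 2834 bp in KO 1 and 3178 bp in KO 2. The KO values lay on either side of both WT values. The means were 3075 ± 8.49 bp in WT and 3006 ± 243 bp in KO libraries (SD, n = 2 each), and the difference of -69 bp was well inside the KO spread (exact permutation test, p = 1). Scores were 1705.5, 301.65, 1012.94 and 1191.67 in the same order of libraries, above 86.6%, 58.7%, 78.7% and 81.1% of their lists.

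The Smc3 window held 4 Smc1a sites, counting merged peaks of both replicates, and 2 of them were called in both. The strongest lay from 53653129 to 53654045, with scores of 1023.05 and 1018.95, above 96.8% and 99.3% of the 2 lists. A weak H3K27ac peak of 1422 bp lay over this site in WT 2 alone (score 64.12), while the nearest peaks of the other H3K27ac libraries were 19834 to 20171 bp away. That single peak gave the window totals of 3069, 4503, 2834 and 3178 bp their highest value, and the window means of 3786 ± 1014 bp in WT and 3006 ± 243 bp in KO libraries were not separated (exact permutation test, p = 0.667). Without WT 2 the difference was -63 bp, against -780 bp with it. The second reproducible site, from 53712357 to 53713147, had scores of 284.13 and 245.73 and lay at least 35071 bp from any H3K27ac peak. On Smc3 a itself, replicate 1 had a broad Smc1a peak of 1928 bp (score 125.41) and replicate 2 had none. The fourth site, from 53723159 to 53724078, was likewise called in replicate 1 alone (score 201.55).

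In the window of Nipbl, the loader, the shared acetylation lay in a pair of adjoining long regions and a short one far from them. Nipbl b, on chromosome 15 from 8391448 to 8398357, was covered over 6065 bp in WT 1, 6544 bp in WT 2, 6352 bp in KO 1 and 6899 bp in KO 2. The groups overlapped, with means of 6304.5 ± 339 bp in WT and 6625.5 ± 387 bp in KO libraries (SD, n = 2 each; exact permutation test, p = 0.667). Its score was 3100 in every library, above 93.02% to 94.98% of the peaks of its list. Between 788 and 1533 peaks of each H3K27ac list had this score or a higher one. The highest scores of these lists were 3209.03 to 3233.06. An equal score so near the top does not show equal signal in WT and KO libraries.

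Nipbl c, from 8398416 to 8403050, began 58 bp after Nipbl b in WT 2, the library with the shortest gap between the pair. It was covered over 4477 bp in WT 1, 4635 bp in WT 2, 4223 bp in KO 1 and 4146 bp in KO 2. Both KO values lay below both WT values, with means of 4556 ± 112 bp and 4184.5 ± 54.4 bp, a difference of -371.5 bp or -8.15%. No split of 4 libraries can separate them further, and the exact permutation test gave its smallest p (0.333). It was the one shared region of the 8 with such a separation, and 22.9% of the shared regions of the genome had both KO lengths below both WT lengths. With all peaks and no scaling, both KO lengths lay above both WT lengths in none of the 8 and in 17.4% of those of the genome. Scaled to the length called per library, Nipbl c no longer separated the genotypes (exact permutation test, p = 1). The scores of its best peaks were 1959.04 in WT 1, 2589.71 in WT 2, 1224.12 in KO 1 and 458.53 in KO 2, above 88.3%, 93.4%, 82.2% and 61.8% of their lists. KO 1 had split it into 2 peaks, of which the left, with a score of 92.99, fell under the stricter score threshold, so that the difference was then -1399.5 bp.

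Nipbl a, from 8228841 to 8230572, was covered over 1427 bp in WT 1, 1498 bp in WT 2, 1379 bp in KO 1 and 1727 bp in KO 2, with overlapping groups (exact permutation test, p = 1). Between Nipbl a and Nipbl b stretched 160875 bp with few and weak calls: 3 peaks in WT 1, none in WT 2 and 2 in each KO library. Their scores were from 52.33 to 73.13, above 1.83% to 13.3% of their lists. One region there, from 8370358 to 8371342, was called in KO 1 over 763 bp (score 66.0) and in KO 2 over 927 bp (score 73.13). Neither WT library had a peak on it, and their nearest peaks were 6099 and 20471 bp away. This KO-only region was 1 of the 23 member regions (4.35%) called in this way, against 2.82% over the genome. Neither of its peaks passed the stricter threshold or the step that gave every list the same number of peaks. The other weak peaks of the stretch were WT 1 peaks of 1093 bp from 8361858 and 764 bp from 8363495, a KO 2 peak of 666 bp from 8385394, and a region from 8387839 to 8389004 called in WT 1 (1044 bp) and KO 1 (910 bp). Over the whole window the covered length was 14870 bp in WT 1, 12677 bp in WT 2, 13627 bp in KO 1 and 14365 bp in KO 2, so the groups overlapped (exact permutation test, p = 1). The window difference of 222.5 bp was -988 bp under the stricter threshold and ran from -874 bp without WT 2 to 1319 bp without WT 1.

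In the Nipbl window 2 of 4 Smc1a sites were called in both replicates. One, from 8400891 to 8402052, lay inside Nipbl c and had scores of 497.81 and 688.56, above 84.7% and 97.5% of their lists. All 4 H3K27ac libraries, KO included, were acetylated over its full 1162 bp. The other, from 8332288 to 8332783, lay at least 29074 bp from any H3K27ac peak. It ranked lower in replicate 2 (scores 182.11 and 58.03, above 55.9% and 11.7% of their lists). Nipbl b carried a broad Smc1a peak of 2574 bp in replicate 1 (score 259.37) and none in replicate 2. The last site, from 8383122 to 8383571, was called in replicate 1 alone (score 108.68), 1822 bp from the nearest H3K27ac peak.

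The window of Ctcf, the loop border factor, had by far the most acetylation of the 4. Called peaks covered 57.2% and 43.2% of it in WT and 42.5% and 34.0% in KO libraries. The other windows were covered over 1.85% to 7.43% in all libraries. The longest region of the Ctcf window was the broad stretch Ctcf a, on chromosome 8 from 108135307 to 108165801, which began to the left of the window. The next shared region to the left lay 243 bp away. To which gene this acetylation belongs was not examined. With a length of 30495 bp, Ctcf a was longer than 99.8% of the shared regions of the genome. It was covered over 29721 bp in WT 1, 28516 bp in WT 2, 30495 bp in KO 1 and 26482 bp in KO 2. The KO libraries held both the highest and the lowest value, and the means of 29118.5 ± 852 bp and 28488.5 ± 2838 bp did not separate (SD, n = 2 each; exact permutation test, p = 1). WT 1 and KO 1 had it as 1 peak, WT 2 as 2 and KO 2 as 4, counting peaks to the left of the window.

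To the right of the stretch followed 2 compact regions. Ctcf b, from 108206572 to 108212588, was covered over 5401 bp in WT 1, 5783 bp in WT 2, 6017 bp in KO 1 and 4100 bp in KO 2. Ctcf c, from 108223176 to 108226771, had 3411 bp in WT 1, 2830 bp in WT 2, 3084 bp in KO 1 and 2969 bp in KO 2. For both regions the groups overlapped (exact permutation test, p = 1 for each). KO 2 was lowest at Ctcf b and WT 2 at Ctcf c.

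Both KO libraries lay below both WT libraries in the interval between Ctcf a and Ctcf b, 40770 bp long from 108165802 to 108206571, which was described after its values had been seen and was not tested. Calls there covered 17020 bp in WT 1, 5740 bp in WT 2, 3350 bp in KO 1 and 692 bp in KO 2. The peaks numbered 9, 4, 2 and 1. Every one was weak or moderate, with scores from 51.47 to 222.11, above 1.24% to 45.4% of their lists. In WT 1, the longest list, there were 9 of them. With the same number of peaks in every list, the interval held 5975, 5740, 1945 and 0 bp, so the difference in means was -4885 bp, against -9359 bp with all peaks. With all peaks it was -3719 bp without WT 1 and -14999 bp without WT 2. With the stricter threshold it held 7753, 1977, 1945 and 0 bp, and WT 2 and KO 1 were then nearly equal. How many comparable intervals of the genome have both KO below both WT libraries was not computed. In the interval between Nipbl a and Nipbl b, all peaks covered 2901 bp in WT 1, 0 bp in WT 2, 1673 bp in KO 1 and 1593 bp in KO 2, so the groups overlapped.

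Within this interval, 2 regions had a peak in both WT and in neither KO library. The first, from 108171625 to 108173306, had widths of 1638 and 1342 bp and scores of 61.61 and 66.43. The second, from 108177272 to 108179562, had widths of 2291 and 1266 bp and scores of 169.47 and 91.37. KO 1 had a peak 1033 bp from the first region and 1527 bp from the second, and the nearest KO 2 peaks were 6878 and 5146 bp away. These were 2 of the 23 member regions (8.70%), against 2.33% over the genome. The count is small, both regions lie in 1 interval described after its values had been seen, and 12 of the 23 regions came from the Ctcf window. The second region was still called in both WT and neither KO library with equal numbers of peaks. Neither was under the stricter threshold. The region next to Ctcf a, from 108166070 to 108169919, had calls over 3684 bp in WT 1, 3132 bp in WT 2 and 1945 bp in KO 1 and none in KO 2. Another region was called in WT 1 (1778 bp) and KO 1 (1405 bp), from 108174332 to 108176109, and one in WT 1 (1663 bp) and KO 2 (692 bp), from 108184531 to 108186193. The other 4 regions were in WT 1 alone, starting at 108181476, 108189652, 108200984 and 108202770, with widths of 1990, 1340, 1665 and 971 bp and scores from 58.48 to 86.13.

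Over the whole Ctcf window, calls covered 51469 bp in WT 1, 38839 bp in WT 2, 38253 bp in KO 1 and 30593 bp in KO 2. Both KO libraries lay below both WT libraries, WT 2 and KO 1 by a narrow margin. The means were 45154 ± 8931 bp and 34423 ± 5416 bp (SD, n = 2 each), a difference of -10731 bp at the smallest p that the design allows (exact permutation test, p = 0.333). With all peaks and no scaling, it was the one window of the 4 with this separation, and none had the reverse. The Rad21 window had the reverse when scaled and under the stricter threshold. Among 8784 tiles of 100 kb with an H3K27ac peak, both KO libraries lay below both WT libraries in 14.6% and above them in 23.3%. A peak in any 1 library was enough for a tile to count, and a tile called in 1 library alone cannot separate the groups. Tiles with as much covered length as the Ctcf window were not examined separately. The difference of the Ctcf window was -4416 bp without WT 1, -17046 bp without WT 2 and -6901 bp without KO 2. Scaled to the called length per library, the window took 914.5 and 851.8 bp per Mb in WT and 726 and 643 bp per Mb in KO libraries, and the separation held. It did not hold under the stricter threshold, with 42202 bp in WT 1, 35076 bp in WT 2, 36848 bp in KO 1 and 27948 bp in KO 2 (exact permutation test, p = 0.667). It was also lost when peaks were not clipped at the window edge, with 55553 bp in WT 1, 38839 bp in WT 2, 42946 bp in KO 1 and 30593 bp in KO 2, a difference of -10426.5 bp (exact permutation test, p = 0.667).

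**Figure D2:**
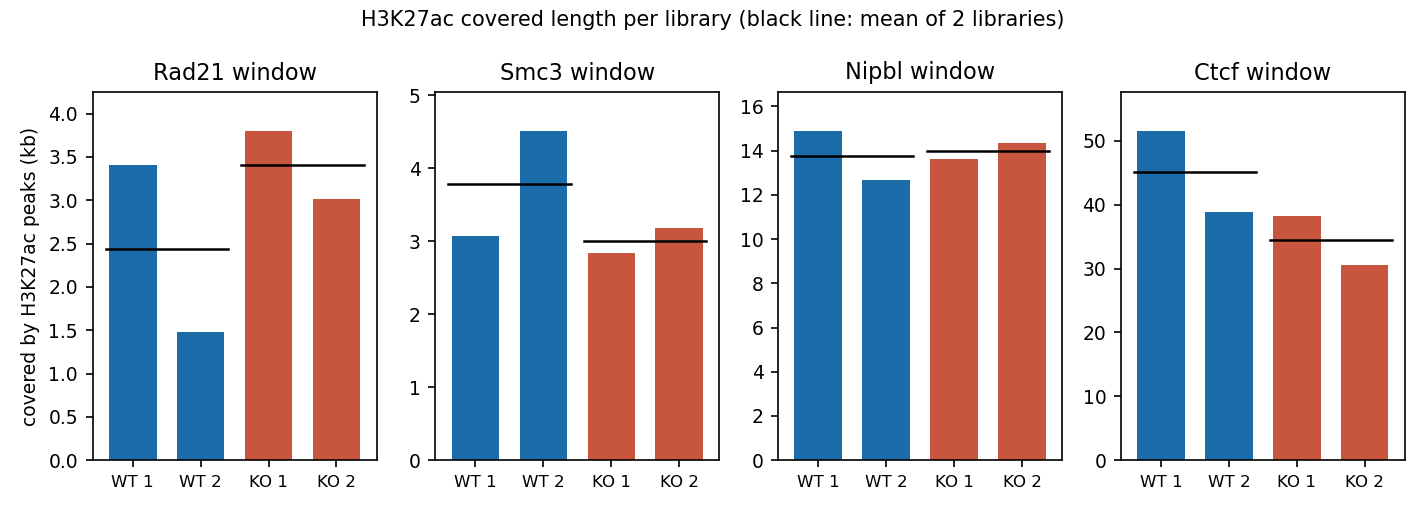
Length covered by called H3K27ac peaks (kb, vertical axis from 0, a scale of its own in each panel) in each WT (blue) and KO (red) library of the 4 windows; black lines are the means of 2 libraries. The groups overlap in the Rad21, Smc3 and Nipbl panels, and in the Ctcf panel the KO bars at 38253 and 30593 bp lie below the WT bars at 51469 and 38839 bp.

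Smc1a was most extensive in the Ctcf window as well. There were 7 merged sites, 3 of them in both replicates. The widest, from 108144010 to 108149326 inside Ctcf a, spanned 5317 bp, more than 99.9% of all merged Smc1a sites, with 3531 bp called in replicate 1 and 5317 bp in replicate 2. Its scores were 1899.73 and 373.61, above 99.8% and 88.6% of their lists. A site from 108208562 to 108211239 lay inside Ctcf b, spanned 2678 bp and had scores of 730.99 and 174.9. Both sites were acetylated over their full length in all 4 H3K27ac libraries.

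The third reproducible site, from 108201200 to 108202405, lay in the interval between Ctcf a and Ctcf b. It had middling scores of 167.76 and 139.9, and the one H3K27ac library with a peak on it was WT 1, which covered all of its 1206 bp. The nearest peaks of WT 2, KO 1 and KO 2 were 4222, 4166 and 5416 bp away. Replicate 1 alone also had a site of 3479 bp inside Ctcf a (score 748.58) and weaker ones in the interval, from 108184818 to 108185644 (score 193.38) and from 108188017 to 108188524 (score 53.72). Replicate 2 alone had 1 there, from 108202995 to 108203449 (score 53.65).

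Over the 4 windows, 7 of 15 Smc1a sites (46.7%) were called in both replicates, against 52.8% of the 28128 merged sites of the genome. Of the other 8, 7 belonged to replicate 1, the longer list. Of the 7 reproducible sites, 3 (42.9%) overlapped a region acetylated in both WT libraries by at least 1 bp, against 22.2% of the 14848 such sites of the genome. These were the ones in Nipbl c, Ctcf a and Ctcf b, so that 3 of the 8 shared regions (37.5%) held a reproducible site, against 20.3% of those of the genome. With a peak of either replicate counted, 5 of the 8 did (62.5%), against 38.3% of those of the genome. The counts are small, and the members were longer than the shared regions of the genome (medians of 4469 and 2922 bp). The part of length in these shares was not tested. Each of the 4 windows held shared acetylation, while the 14848 sites came from anywhere in the genome. The shares of sites were therefore not matched for nearby acetylation.

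**Figure D3:**
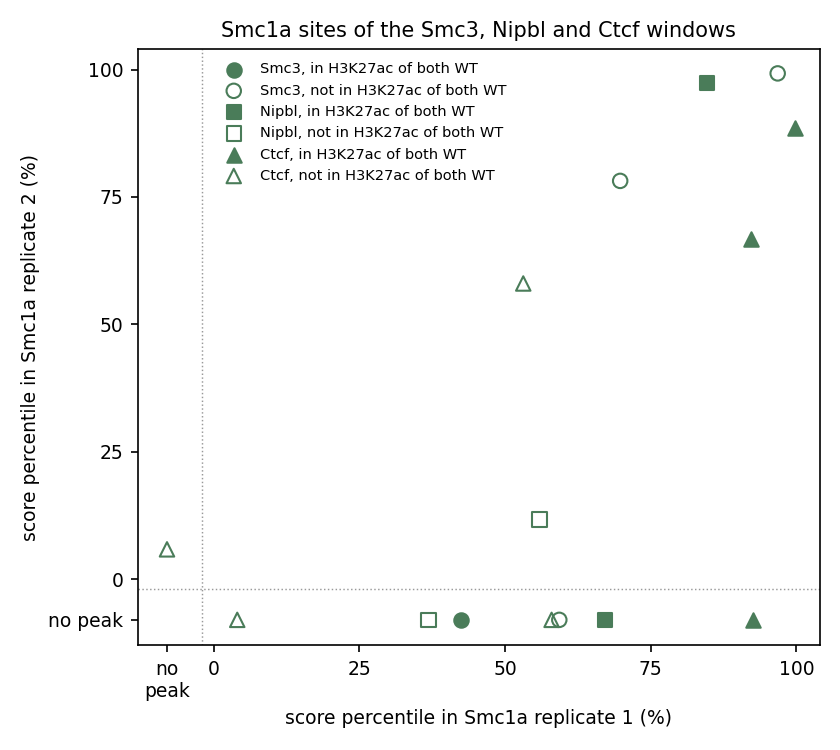
Score percentile of each merged Smc1a site within the lists of replicate 1 (horizontal) and replicate 2 (vertical), in percent of peaks with a lower score; circles are the Smc3, squares the Nipbl and triangles the Ctcf window, filled where WT 1 and WT 2 both had H3K27ac at the site, and sites without a peak in a replicate sit in the strip marked no peak. The strongest site outside such acetylation is that of the Smc3 window at 96.8% and 99.3%, and 7 sites have a peak in replicate 1 alone.

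Across the 8 shared regions, the KO to WT ratio of covered length was near that of most regions of the genome at 7 and high at Rad21 a. The log2 ratio of mean KO to mean WT length ran from -0.14 (Ctcf b) to 0.48 (Rad21 a), with a median of -0.03. Over all 12129 shared regions the median was -0.02, with the middle 50% between -0.17 and 0.10 and the middle 95% between -0.70 and 0.50. Rad21 a was higher than 97.2% of them, while the other 7 lay between the 28.7 and 72.7 percentiles. The WT libraries themselves differed at Rad21 a by -1.20 (log2 of WT 2 over WT 1), which is larger than its KO to WT difference. The median size of that WT difference over all shared regions was 0.13. Differences between the KO libraries were largest at Ctcf b (log2 of KO 2 over KO 1, -0.55).

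**Figure D4:**
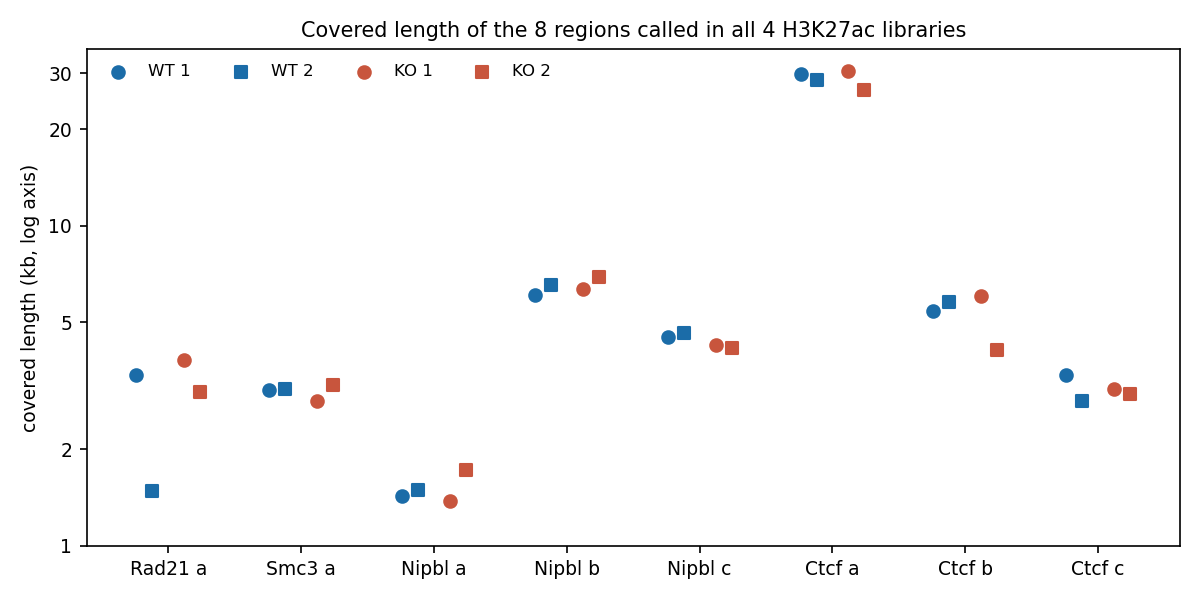
Covered length (kb, log axis) of the 8 shared regions in each library, WT in blue and KO in red, replicate 1 as circles and replicate 2 as squares. WT 2 lies at 1478 bp at Rad21 a, under the other 3 libraries, and at Nipbl c both red points lie below both blue ones.

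**Figure D5:**
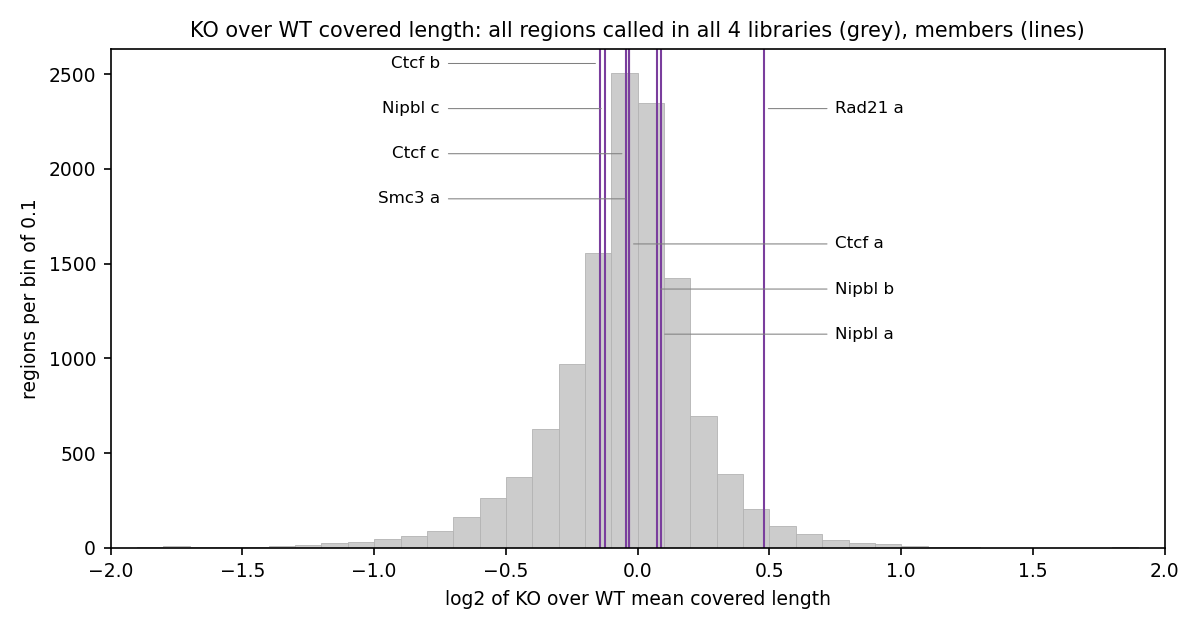
Number of shared H3K27ac regions of the genome (vertical) by the log2 ratio of mean KO to mean WT covered length (horizontal, bins of 0.1; grey), with the 8 members as lines; 4 of the 12129 regions lie beyond the axis. Of the members, 7 lie near the centre between -0.14 and 0.09, and Rad21 a lies at 0.48 in the right tail.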

How the data were processed

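Peak lists of 6 chromatin immunoprecipitation libraries were analysed, 1 list per library. Input libraries (5 samples) were left out. The submitters' processing notes name Bowtie 0.12.8 and mm9, and the deposited peak names begin with MACS. Each list holds the authors' deposited start, end and score per peak. How MACS was run, with which control, and how reads were filtered is not given in the sources used here.

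Overlapping or touching H3K27ac peaks of the 4 libraries were merged into regions, and covered length is the number of bases under a library's peaks. Smc1a peaks were merged in the same way, and reproducible sites had a peak of both replicates. Libraries were permuted between genotypes in a two-sided exact test (smallest p 0.333), whose p-values were not adjusted. The computations used Python 3.11.15, numpy 2.4.6 and pandas 2.3.3, and the interval functions were tested on simulated data. The stricter threshold kept the upper 75% of each list by score, and the equal numbers step kept the 15686 (H3K27ac) or 17726 (Smc1a) best peaks. All 4 gene names matched the RefSeq gene table, which was used for names and gene order. Motif letters were set after the promoters had been read.

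All 4 genes were described, with every region and site accounted for. The genes, windows and comparisons were chosen with earlier results of these data known. Other cohesin genes and cell type markers were not analysed here, since no annotation of mm9 was used. Coordinates are counted from 1.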

Additional observations from a re-analysis of the deposited data

How the results depend on the processing

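Of 167 alternative values for 21 results, 152 had the direction of the reported value or a count within 1.5 times of it, 8 turned their direction, 2 left no difference and 5 counts moved. No test could pass a threshold with 2 libraries against 2, so these counts show nothing of the stability of a call. Leaving out 1 library at a time, the KO minus WT difference of the window ran from 0 to 1928 bp at Rad21, from -1497 to -63 bp at Smc3, from -874 to 1319 bp at Nipbl and from -17046 to -4416 bp at Ctcf. The shared regions ran from 0 to 1928 bp (Rad21 a), -241 to 103 bp (Smc3 a), -83.5 to 264.5 bp (Nipbl a), 47.5 to 594.5 bp (Nipbl b), -450.5 to -292.5 bp (Nipbl c), -2636.5 to 1376.5 bp (Ctcf a), -1492 to 425 bp (Ctcf b) and -384.5 to 196.5 bp (Ctcf c). The interval between Ctcf a and Ctcf b ran from -14999 to -3719 bp. The Nipbl window turned to -988 bp under the stricter threshold, at which the left KO 1 peak of Nipbl c, among other weak peaks, was dropped. With a region needing 50% of its length covered in every library, Rad21 a was no longer shared (0 regions in its window). Reproducible Smc1a sites at Nipbl numbered 1 with the stricter threshold, against 2. With replicate 1 or 2 of Smc1a left out, the sites numbered 2 and 4 at Smc3, 2 and 4 at Nipbl, 4 and 6 at Ctcf and 0 at Rad21, since a single list is then counted. In the labels, same-numbered libraries shared only a number, and whether they were paired is not stated. The deviations of WT 1 and KO 1 had r = 0.06 across regions, which cannot decide it, since paired libraries need not deviate together in called length. With the replicate block the Ctcf window difference stayed -10731 bp (exact sign-flip permutation p = 0.5, the smallest that 2 pairs allow). The alternatives for the interval between Ctcf a and Ctcf b were chosen after seeing the data. Unknown depth limits every missing call.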
